A study of Homo sapiens with 26 samples.

Results

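Amino acid transporters of the plasma membrane that have been linked to the transcription factor ATF4 were examined in SK-MEL-28, a melanoma line of human origin, after 72 h in salubrinal or with no treatment. The members were 9 rows chosen by name from the 55353 gene rows of the input RNA tables, namely Slc7a11, Slc7a5, Slc3a2, Slc7a1, Slc1a4, Slc1a5, Slc38a1, Slc38a2 and Slc6a9. Salubrinal blocks the removal of phosphate from the translation factor eIF2α and thereby activates the integrated stress response. The 26 samples were 1 input RNA library from salubrinal-treated cells, 1 from untreated cells, and 24 gradient samples, in which the polysome, 80S, 60S and 40S fractions of each treatment have 3 replicates. All cells had received cycloheximide, a blocker of ribosome movement, at 100 µg/mL for 12 min before lysis, and lysates were spun through 5 to 20% sucrose. In the labels, the field for the cell line gives each sample a different numbered name, so the titles, which all name SK-MEL-28, were followed.

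When amino acids run short or eIF2α is phosphorylated, ATF4 protein accumulates and pairs with CEBP proteins on short composite DNA sites near genes of amino acid synthesis and uptake. The transporters studied here bring in different cargo. Cystine, glutamine, large neutral, cationic and small neutral amino acids each have carriers of their own, and some carriers work as exchangers that spend one amino acid to import another. In melanoma and other tumour cells they are known for supplying glutathione synthesis and growth signalling through mTORC1.

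Promoter windows of the members were taken from RefSeq (GRCh38.p14), each with 250 bases before and 50 after an annotated start, because ATF4 acts through short sites of known letters. Of the 9 genes, 8 had at least 1 window, 14 windows in all, and SLC7A11 was the other. The letters TGATGNAAN of the composite site, searched on either strand, occurred in 5 of the 14 windows and in 5 of the 8 genes. These letters were found in 3.61% of all 35116 windows, and in at least 1 window of 3.60% of 15843 protein-coding genes. The members were chosen for their links to ATF4, so their larger share is no independent support for such links. The 5 matches are shown with the matched letters in capitals, on the strand of the gene, since they are the letters that these 5 genes share. SLC3A2 is at chr11:62881709-62881748 (+), SLC7A1 at chr13:29595658-29595697 (-), SLC1A4 at chr2:64989375-64989414 (+), SLC1A5 at chr19:46784888-46784927 (-) and SLC38A1 at chr12:46266497-46266536 (-).
SLC3A2: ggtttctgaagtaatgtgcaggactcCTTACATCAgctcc
SLC7A1: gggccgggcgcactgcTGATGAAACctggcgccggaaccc
SLC1A4: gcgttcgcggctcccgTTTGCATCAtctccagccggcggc
SLC1A5: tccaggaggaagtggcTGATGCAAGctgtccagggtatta
SLC38A1: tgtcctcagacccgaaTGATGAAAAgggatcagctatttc

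The match in SLC1A4 began 8 bases before the more downstream of its starts. That in SLC38A1 began 4 bases before the more downstream of its starts. The windows of the upstream starts of these genes held no match. The match in SLC7A1 began at base 8 of the transcript. In SLC3A2 the match lay at base 37 after the most downstream of 3 starts, and in SLC1A5 97 bases before the most downstream of 3 starts. These are matches of letters and not observed binding sites. The windows of SLC38A2 and SLC7A5, the members with the highest and the lowest input ratio in the results that follow, held no composite letters. No gene was searched beyond its windows, so composite letters elsewhere in SLC38A2 or SLC7A5 would have been missed. The windows of SLC38A2 and SLC7A5 are shown whole, at chr12:46372724-46373023 (-) and chr16:87869458-87869757 (-). Capitals mark the letters TGACNNNGC of the antioxidant response site, which occurred 2 bases before the SLC7A5 start, in 4 of the 14 windows and in 13.3% of all windows.
SLC38A2: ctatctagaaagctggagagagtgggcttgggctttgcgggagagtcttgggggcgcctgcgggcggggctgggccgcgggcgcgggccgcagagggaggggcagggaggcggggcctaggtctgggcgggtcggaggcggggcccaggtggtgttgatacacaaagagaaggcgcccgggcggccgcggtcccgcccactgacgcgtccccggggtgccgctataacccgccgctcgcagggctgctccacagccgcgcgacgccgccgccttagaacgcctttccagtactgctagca
SLC7A5: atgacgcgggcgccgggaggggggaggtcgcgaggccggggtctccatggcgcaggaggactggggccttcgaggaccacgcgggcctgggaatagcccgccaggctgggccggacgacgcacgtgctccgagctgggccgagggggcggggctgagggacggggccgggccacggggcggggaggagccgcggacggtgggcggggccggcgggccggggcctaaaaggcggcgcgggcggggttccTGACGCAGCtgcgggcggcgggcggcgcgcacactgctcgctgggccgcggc

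SLC3A2 held TGACTCAGC 37 bases before the same downstream start, where the antioxidant letters overlap TGAGTCA, the AP-1 site read on the other strand. AP-1 letters occurred in 2 of the 14 windows, those of SLC3A2 and SLC38A1, and in 4.95% of all windows. The cyclic AMP response letters TGACGTCA occurred in none of the member windows and in 1.85% of all windows. Across the input table, 183 measured rows whose symbol matched a protein-coding gene with composite letters had a median log2 ratio, salubrinal over control, of 0.14, with 5.46% of them at least 2-fold higher. The 6656 matched rows of genes without these letters had a median of -0.02, with 1.88% at least 2-fold higher. For AP-1 letters the share at least 2-fold higher was 3.95% of 304 rows with them and 1.88% of 6535 without. The share at least 2-fold lower was also larger with AP-1 letters, 4.93% against 3.99%, and the medians were -0.02 and -0.01. For the cyclic AMP response letters the shares at least 2-fold higher were 2.41% with and 1.95% without. For the antioxidant letters they were 1.96% and 1.98%. These shares describe 1 library per condition, and the 5.46% stands for 10 rows.

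Each treatment had 1 input library, which held 10245548 gene-row counts with salubrinal and 12068784 without. Row names in both are mouse-style symbols, although the cells are human, and the submitters' processing notes name hg19, a human build. The sources used here do not say which annotation gave these symbols. A row with few counts therefore need not mean a transcript of low abundance. Ratios were formed between libraries for the same row, and pairs of rows were compared by their count ratio in each library. Counts or CPM given side by side for different rows do not rank their transcripts. Of 9 markers fixed for the melanoma line 7 had at least 50 counts over both libraries, and the list summed to 1419 CPM with salubrinal and 2796 CPM without. Pmel held the most counts, 13535 with salubrinal and 16793 without. The markers did not move alike in size. Of the 7 measured, 6 lay below a log2 ratio of 0 and 1 above, with a median of -1.01. In log2 ratio 4 were at least 2-fold lower, namely Dct (-2.37), Sox10 (-1.46), Pmel (-1.02) and Mitf (-1.01), while S100b stood at 0.15. CPM are counts per 1000000 of a library size scaled by trimmed means (TMM). Whether the difference in these markers has a part in the transporter ratios was not tested, and fewer cells of a type cannot be told apart from less RNA per cell. Mlana, a defining melanocyte marker, was listed at 0 in both. Fibroblast, immune, epithelial and endothelial marker lists each summed to at most 4.44 CPM with salubrinal and 5.74 CPM without. Col1a1, Cd3e and Cdh5 were at 0 in both libraries. As for Mlana, a row at 0 need not mean that the transcript was absent. With 1 library per condition no test was possible. Intervals are exact at 95% and cover counting error only, so they say nothing of the spread between cultures.

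Of the 9 members, 7 were measured, meaning at least 50 counts over both libraries. Slc38a2, Slc7a11 and Slc1a5 stood higher with salubrinal, Slc1a4 slightly higher, Slc3a2 and Slc7a1 lower, and Slc7a5 lowest, at a ratio of 0.505. In all, 4 members lay above a log2 ratio of 0 and 3 below. A ratio of 2 or more, the threshold used for input RNA, was reached by 1 of the 7, against 2.75% of all 10614 measured rows. No member was lower by that much (0 of 7), against 3.8% of all measured rows. The members' median log2 ratio was 0.19, against 0.02 over all measured rows.

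**Figure D1:**
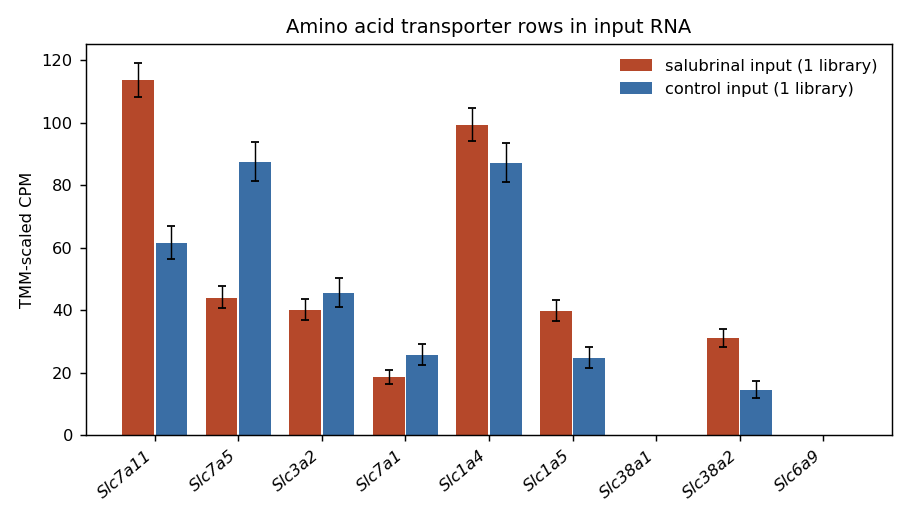
TMM-scaled counts (CPM) of the 9 transporter rows in input RNA, salubrinal library (left bar) and control library (right bar), 1 library each; error bars are exact 95% Poisson intervals for counting error, drawn for the 7 measured rows. Slc7a11, Slc1a4, Slc1a5 and Slc38a2 are higher and Slc7a5 and Slc7a1 are lower in the salubrinal library with intervals that do not overlap, and Slc38a1 and Slc6a9 are at or near 0 in both.

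Carriers of glutamine and small neutral amino acids differed within and between families. Slc38a2 encodes SNAT2, a sodium-coupled carrier of small neutral amino acids that cells raise when amino acids are scarce. Its row held 441 counts with salubrinal and 126 without, or 31.1 and 14.5 CPM. The log2 ratio was 1.09 (0.81 to 1.40), a ratio of 2.13, and 97.8% of measured rows lay below it. It was the only member past 2-fold, and its interval includes ratios below that. Slc38a1, which encodes the related carrier SNAT1, held 0 counts in both libraries. A floor of 3 counts stands at 0.211 CPM with salubrinal and 0.344 CPM without. It limits the level of the transcript only if its reads can be counted in this row, which the sources used here do not show. No ratio was formed for Slc38a1.

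Slc1a5 encodes ASCT2, which exchanges glutamine for other neutral amino acids. It held 564 counts with salubrinal and 214 without, or 39.7 and 24.6 CPM, a log2 ratio of 0.69 (0.46 to 0.93) with 92.2% of measured rows below it. Slc1a4 encodes ASCT1, the family member that prefers alanine, serine, cysteine and threonine. It held 1410 counts with salubrinal and 758 without, or 99.3 and 87.0 CPM, a log2 ratio of 0.19 (0.06 to 0.32). The 2 paralogs thus differed by 0.50 on the log2 scale (0.24 to 0.77), with Slc1a5 the higher of them. Slc6a9, which encodes the glycine transporter GlyT1, held 0 counts with salubrinal and 1 without and was not measured.

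The heavy chain 4F2hc, encoded by Slc3a2, carries light chains to the plasma membrane, and 2 of its light chains are members. Slc7a11 encodes xCT, the light chain that imports cystine in exchange for glutamate and so feeds glutathione synthesis. It held 1612 counts with salubrinal and 535 without, or 114 and 61.4 CPM, a log2 ratio of 0.88 (0.74 to 1.03) with 95.8% of measured rows below it. Slc7a5 encodes LAT1, the light chain that imports leucine and other large neutral amino acids. It held 625 counts with salubrinal and 761 without, or 44.0 and 87.4 CPM, a log2 ratio of -0.99 (-1.14 to -0.83), and 3.97% of measured rows lay lower. The value falls just short of 2-fold lower. Slc3a2 itself held 568 counts with salubrinal and 396 without, or 40.0 and 45.5 CPM, and its log2 ratio of -0.18 had an interval that reaches 0 (-0.37 to 0.0044).

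The 2 light chains thus lay on opposite sides of their heavy chain. The count ratio of Slc7a11 to Slc7a5 was 2.58 in the salubrinal library and 0.703 in the control library, a 3.67-fold difference that no scaling between libraries enters (log2 1.87, interval 1.66 to 2.09). Slc7a11 exceeded Slc3a2 by 1.07 on the log2 scale of ratios (0.83 to 1.31), and Slc3a2 exceeded Slc7a5 by 0.80 (0.56 to 1.05). Slc7a1, which encodes CAT1, a carrier of arginine and lysine that works without the heavy chain, held 264 counts with salubrinal and 223 without, or 18.6 and 25.6 CPM. Its log2 ratio was -0.46 (-0.72 to -0.20).

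**Figure D2:**
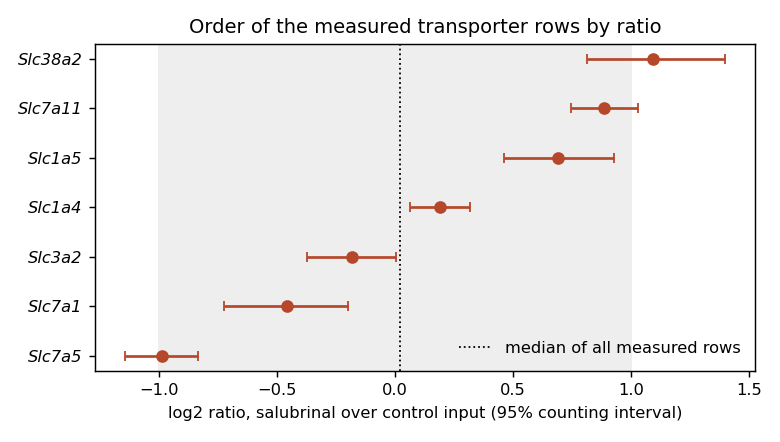
Log2 ratio of TMM-scaled counts, salubrinal over control input, for the 7 measured members in descending order; bars are exact 95% intervals for counting error, the shaded band marks less than 2-fold, and the dotted line is the median of all measured rows. The ratios run from 1.09 for Slc38a2 to -0.99 for Slc7a5.

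All 21 pairs of measured members were compared by the ratio of their count ratios. The interval excluded 0 in 18 pairs. The 3 pairs whose interval held 0 were neighbours in the order: Slc38a2 over Slc7a11 (0.22, -0.11 to 0.55), Slc7a11 over Slc1a5 (0.19, -0.08 to 0.47) and Slc3a2 over Slc7a1 (0.28, -0.05 to 0.60). The largest difference was that of Slc38a2 over Slc7a5, at 2.09 (1.76 to 2.43). The pairs share libraries and rows, and the intervals were not adjusted for their number.

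**Figure D3:**
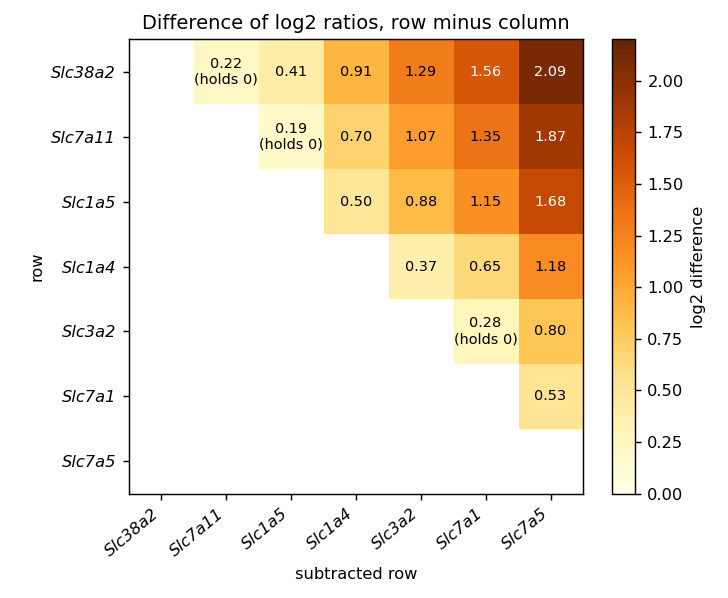
Difference of log2 ratios between each pair of measured members, the row gene minus the column gene, ordered by ratio; "holds 0" marks the 3 pairs whose exact 95% counting interval includes 0. Every pair with Slc7a5 has an interval above 0.

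The direction of some members depended on the scaling. A single row, CT010467.1, took 12.8% of the salubrinal library's gene-row counts and 56.7% of the control library's. Division by total gene-row counts in place of TMM moved the median of all measured rows by 0.93. Under it Slc3a2 stood at 0.75 and Slc7a1 at 0.48, above 0 but still below that shift, and Slc7a5 stood at -0.05. Relative to the shift the 7 members ran from 1.10 for Slc38a2 to -0.98 for Slc7a5, nearly their TMM values. That follows from the scaling, which moves all rows by nearly the same amount, and is no separate check of the signs.

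The members were spread over the range of solute carrier ratios. Of 85 solute carrier rows with at least 200 counts, Slc38a2 ranked 2, Slc7a11 ranked 5 and Slc1a5 ranked 8 from the highest ratio, Slc1a4, Slc3a2 and Slc7a1 ranked 27, 44 and 60, and Slc7a5 ranked 81. The highest was Slc20a1, a phosphate transporter gene, at 1.25 (1.21 to 1.29), followed after Slc38a2 by the glucose transporter gene Slc2a3 (0.99) and the myo-inositol transporter gene Slc5a3 (0.97). The lowest were Slc45a2, a melanosome transporter gene (-1.51), Slc38a10 (-1.42), Slc35a4 (-1.17) and the thiamine transporter gene Slc19a2 (-1.14). By distance in log2 ratio, the solute carrier rows nearest to Slc7a11 were the taurine transporter gene Slc6a6 (0.84), Slc5a3 and Slc2a3. Those nearest to Slc38a2 were Slc2a3, Slc5a3 and Slc20a1. The likeness rests on 1 ratio from 2 libraries. The 140 measured solute carrier rows outside the members had a median of -0.18, with 2 of them past 2-fold upwards and 7 downwards.

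The lists of other amino acid transporters had medians below 0, as had the 140 measured solute carrier rows outside the members (-0.18). Of 7 measured SLC7 and SLC3 rows, Slc7a11 was the only one above 0, and the rows outside the members were Slc7a6, Slc7a8 and Slc7a2 at -0.52, -0.63 and -0.79. Slc7a6 and Slc7a8 encode further light chains of 4F2hc and Slc7a2 a cationic carrier. Of 9 other measured plasma membrane amino acid transporters, a list that also holds these 3 rows, 4 lay above 0 and 5 below. In that list 0 were at least 2-fold higher and 1, Slc38a10, at least 2-fold lower. Slc6a6 was highest at 0.84 (0.61 to 1.09), and the median was -0.34. Neither the 6 measured lysosomal amino acid transporters (median -0.38) nor the 11 mitochondrial carriers of amino acids and related molecules (median -0.44) held a row past 2-fold. The contrast list of 13 glucose, lactate, nucleoside and other carriers had a median of -0.38, and held Slc20a1 and Slc19a2 at its ends.

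**Figure D4:**
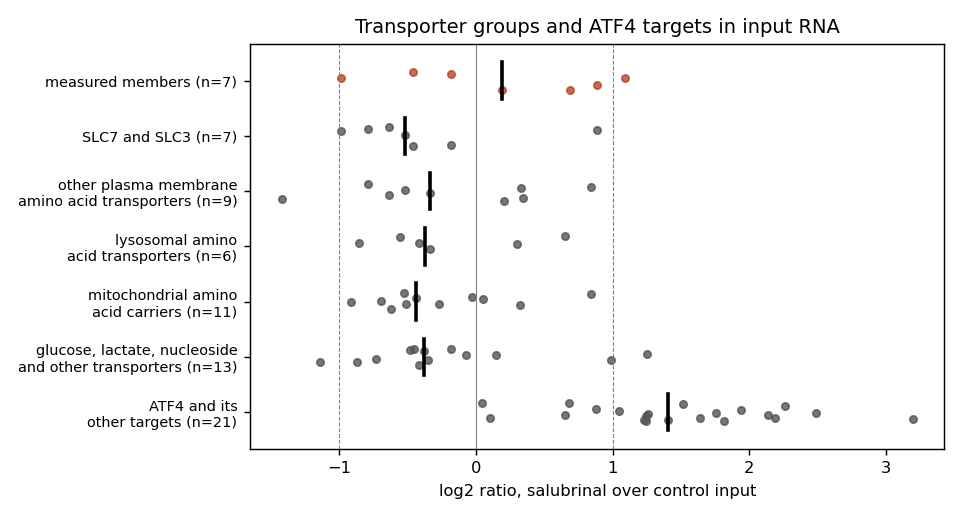
Log2 ratio, salubrinal over control input, of each measured row in the member set, in 5 transporter lists and in the list of ATF4 and its other targets; points are rows, black bars are medians, and dashed lines mark 2-fold. The members' median is 0.19, the 5 transporter lists lie between -0.34 and -0.52, and the ATF4 list lies at 1.40; the list of SLC7 and SLC3 rows includes 4 of the members.

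Measured genes of ATF4 and its other targets had a higher median than the transporters, with ranges that overlap. Of 21 such rows 16 were at least 2-fold higher and 0 lower, with a median of 1.40 and with Asns, which makes asparagine, highest at 3.20 and the proline synthesis gene Aldh18a1 lowest at 0.04. The lists were made with earlier results of these data known, so their direction is no independent support. In the list of glutathione synthesis and cystine use 5 of 19 rows were at least 2-fold higher. Of these Chac1, Cth and Cbs are also in the ATF4 list, as are Asns, Psat1, Gpt2, Ddit4, Sesn2 and Atf4 of the lists that follow. Chac1, which encodes an enzyme that degrades glutathione, stood at 2.49, the cysteine-making enzyme genes Cth and Cbs at 1.94 and 1.51, the quinone reductase gene Nqo1 at 1.11, and Gclm, the modifier subunit of the enzyme of the first step of glutathione synthesis, at 1.03. The catalytic subunit gene Gclc was at -0.06 (-0.34 to 0.21), beside 0.88 for Slc7a11.

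Of 27 genes of amino acid sensing upstream of mTORC1, 3 were at least 2-fold higher and 1 lower, with a median of -0.08. Those past 2-fold were the leucine sensor gene Sesn2 (2.19), Lamtor3 (1.34), Ddit4 (1.26) and Wdr24 (-1.44, from 26 counts with salubrinal and 46 without). In the glutamine use list, 4 of 13 rows were at least 2-fold higher, which were Asns, Psat1 (1.40), Gpt2 (1.23) and Gfpt1 (1.05), enzymes that take nitrogen from glutamine or glutamate. Among regulators linked to the transporters Atf4 stood at 1.82 and Txnip, an inhibitor of glucose uptake, at 1.53. Mlxip, whose product pairs with Mlx, stood at -1.13. Myc and Nfe2l2, which have been linked to Slc7a5 and Slc7a11, stood at -0.42 and 0.39. In the same list Bach1, Hif1a and Trp53 stood at 0.80, 0.80 and 0.91, the last from 48 counts with salubrinal and 15 without. Of the 18 measured rows of this list 12 lay above 0 and 6 below, with a median of 0.32. Whether any of these regulators has a part in the transporter ratios was not tested.

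The fraction files, of 6627394 to 12984883 counts each, use human symbols. Most of these counts fell on lines that name no gene and nearly all others on ribosomal RNA, and the members had almost no counts there. Over 24 files the 9 member rows held 33 counts together, 16 with salubrinal and 17 without, of 87524 and 202856 gene-row counts outside ribosomal RNA. SLC3A2 had the most, with 3 counts in salubrinal files and 6 in control files, and no member row had over 2 counts in a file. SLC38A1 and SLC38A2 had 0 in every file. None of the 9 passed the low-count filter in any fraction, so the edgeR comparison of polysome files, in which 3.73% of 241 tested rows passed, gave no value for a member. Without the filter 5 members were tested, with 0 called and 0 at an unadjusted p under 0.05 in edgeR and in DESeq2. Over all 6044 rows of those fits 0.0% were called by either tool, with 153 rows in edgeR and 57 in DESeq2 at an unadjusted p under 0.05. The fraction files thus give no measure of these transcripts on ribosomes.

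The row SLC7A11-AS1, named for an antisense RNA gene that overlaps SLC7A11 in the RefSeq table, held 217 counts against 3 on SLC7A11. It was picked out after its values were seen. Libraries were made with a stranded kit, but the sources used here give no strand setting for the counting, so reads of SLC7A11 and of its antisense partner cannot be told apart in this row. Outside ribosomal RNA the 4 fraction files of each replicate did not differ beyond sampling noise (chi-square per degree of freedom 0.936 to 1.03, p from 0.0895 to 0.811) once the 40S files of control replicates 1 and 2 were exchanged. As titled, these 2 replicates gave 1.23 and 1.47. The 24 files were therefore counted as 6 libraries, with these files exchanged. Of the 16 member counts with salubrinal 15 came from the library of replicate 3, and of the 17 without 12 came from that of replicate 1.

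SLC7A11-AS1 had 7, 3 and 87 counts in the 3 salubrinal libraries and 47, 13 and 60 in the 3 control libraries. These are 6.89, 7.96 and 11.8 counts per 10000 outside ribosomal RNA with salubrinal, and 5.44, 5.74 and 6.40 without. The salubrinal values all lay above the control values, at 8.89 ± 2.59 and 5.86 ± 0.493 (SD, n = 3 each; two-sided exact permutation p = 0.1, the smallest that 3 against 3 allows). In edgeR's quasi-likelihood test over 913 rows, of which 3.61% rose, the log2 fold change was 1.02 ± 0.34 (SE, adjusted p = 0.0448). RLE factors in place of TMM gave an adjusted p of 0.0502 and DESeq2 without a filter 0.999. The edgeR call was lost without salubrinal replicate 1 or 3 or any 1 control replicate (adjusted p from 0.0921 to 0.732), and the fold change without salubrinal replicate 3 was 0.55. With library sizes alone it was -0.22, still above the median of -1.30 over all rows under that scaling. The labels do not say whether replicates came from separate cultures, so the p-values measure only the spread between these samples, which may be technical.

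**Figure D5:**
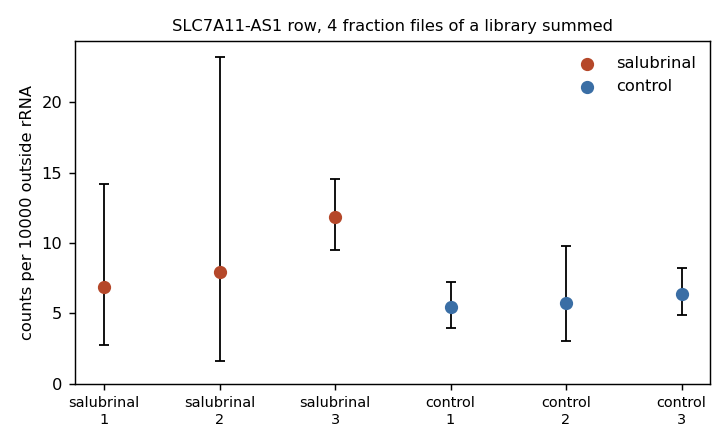
Counts of the SLC7A11-AS1 row per 10000 counts outside ribosomal RNA in the 6 gradient libraries, 4 fraction files summed for each, salubrinal libraries left and control libraries right; bars are exact 95% binomial intervals for counting error. Salubrinal values lie between 6.89 and 11.8 and control values between 5.44 and 6.40, with wide intervals in salubrinal replicates 1 and 2, which had 7 and 3 counts.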

How the data were processed

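The authors deposited whole-number counts of reads per gene row, not normalized, for 26 samples. A TruSeq stranded total RNA kit was used, per the labels' protocols. The submitters' processing notes name STAR, HTSeq 0.5.3p3, SAMtools 0.1.19.24, FastQC 0.11.5, DESeq and the build hg19. Of all input counts, gene rows held 7.06% with salubrinal and 5.94% without, and the rest fell on rows that name no gene, which were left out.

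Members and lists were chosen with earlier results of these data known. Samples were grouped by their titles, except that in the summed fraction files the 40S files of control replicates 1 and 2 were exchanged. Input ratios are log2 ratios of TMM-scaled counts (edgeR 4.0.16, R 4.3.3) with a prior count of 2, with exact conditional binomial intervals, and for pairs of rows exact conditional odds ratios. A row was measured with at least 50 counts over both libraries. Fraction files were tested with edgeR (filterByExpr, TMM, robust glmQLFit, quasi-likelihood test, Benjamini-Hochberg threshold 0.05), checked on simulated data. The simulated rows all had the same dispersion, without the differences in ribosomal RNA share between the real libraries. The check therefore does not cover the scaling of these libraries. The SE of a log2 fold change was obtained from its two-sided p by the normal distribution. The text names all members, at most 6 list rows past 2-fold (largest first) with counterparts of opposite sign, the 5 highest and 5 lowest solute carriers with at least 200 counts, and the 3 nearest to Slc7a11 and to Slc38a2. Myc, Nfe2l2, Bach1, Hif1a, Trp53, Gclc, Aldh18a1 and the SLC7 relatives fall outside that rule and were chosen after their values were seen. Reads that near-identical genes share could not be assigned with certainty. Promoter sequences are RefSeq's, and letters were matched on both strands.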

Additional observations from a re-analysis of the deposited data

How the results depend on the processing

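In input RNA, RLE factors, upper-quartile scaling, TMM without mitochondrial rows and CT010467.1, and a prior count of 0.5 left each of the 7 member ratios within its counting interval. They left 1 member at least 2-fold higher and 0 lower, as did a minimum of 200 counts. Total gene-row counts moved all 7 ratios, to between -0.05 and 2.03, with 4 members and 45.5% of all rows at least 2-fold higher and a median of 1.13, while the median of all rows moved by 0.93. With a minimum of 1 count, which adds Slc6a9 at 0 and 1 counts, the members' median was 0.0033. In the polysome fraction 0 members were called by edgeR and 0 reached an unadjusted p under 0.05, because none passed the filter. With RLE factors, with summed files and over all left-out replicates (0 to 0 called) no member passed the filter either, so these counts say nothing of stability. Without the filter 5 members were tested, with 0 called in edgeR and in DESeq2 1.42.0, where 0 of all 6044 rows were called. Over all rows, 9 of 241 were called in the polysome fraction, 4 with the replicate block and 0 to 39 without 1 replicate. In the summed files 52 of 913 were called, 89 as titled, 24 with the replicate block, 0 with library sizes alone, 1 by DESeq2 and 8 to 117 without 1 replicate.

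Replicate numbers are shared by the groups, but same-numbered polysome samples correlated at 0.02, 0.35 and 0.42 in their deviations over 241 rows, so the numbers were not taken to pair the samples. With the replicate block no member had a value to test in the polysome fraction (0 called), and SLC7A11-AS1 in the summed files stood at 0.92 (edgeR adjusted p = 0.276). All alternatives for that row were added after the data were seen. Its fold change was 1.10 as titled (adjusted p = 0.012), 0.97 with RLE factors (0.0502), 0.80 with DESeq2 without the filter (0.999) and reversed at -0.22 with library sizes alone (0.951). Leaving out 1 replicate gave 0.55 to 1.09, with adjusted p from 0.0141 to 0.732. Depth limits the fraction values, and having 1 input library per treatment limits every input ratio.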
